A study of Mus musculus with 6 samples.

Results

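The genes described here encode the core and linker histones that are made when DNA is copied. They were taken as the protein-coding rows of the expression table whose gene name begins with Hist1h, Hist2h, Hist3h or Hist4h, which gave 67 of the 54532 genes. Of these, 6 encode linker histone H1, 18 encode H2A, 18 encode H2B, 12 encode H3 and 13 encode H4. The *Hist1* genes numbered 54 on chromosome 13, the *Hist2* genes 10 on chromosome 3, the *Hist3* genes 2 on chromosome 11 and the *Hist4* gene stood alone on chromosome 6.

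RNA-sequencing was performed on GFP+ leukemia cells sorted from mouse bone marrow, with 3 libraries per genotype. Both groups came from fetal liver cells that carried a floxed *Phf6* allele (Phf6 fl/y, males) and were transduced with a RE9a-GFP retrovirus, which expresses the leukemia oncogene RUNX1-ETO9a, before transplantation into recipient mice. *WT Phf6,RE9a* cells (replicates 1, 2 and 3) had no Cre. *VC Phf6,RE9a* cells (replicates 11, 12 and 13) also carried Vav1-Cre, which is active in blood cells and deletes *Phf6* there. The retrovirus drives leukemia from transduced cells in a host that keeps its own blood cells, and no label tells if the 3 libraries of each genotype were made from separate animals or leukemias. The p-values therefore measure only the spread between these libraries. The question for the histone genes was whether their mRNA levels differed between leukemia cells with and without *Phf6*.

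Replication-dependent histone genes sit in clusters, mostly as short genes with no intron. Their mRNAs rise in S phase, when new DNA has to be packed into nucleosomes. Most of these mRNAs end in a conserved stem-loop that is bound by SLBP and cut with the help of U7 snRNA, and they carry no poly(A) tail. Some histone genes also make a polyadenylated mRNA that runs past the stem-loop, and such mRNAs are found in differentiated and resting cells. A library made by poly(A) selection holds few mRNAs of the first kind. The kit was the Illumina TruSeq RNA Sample Prep Kit, and whether poly(A) RNA was selected is not given in the sources used here.

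The stem-loop was looked for in the GENCODE M21 transcripts (GRCm38), in which all 67 genes had the start and end of the deposited table. The search asked for a stem of 6 base pairs that begins with GG, around a loop of 4 bases, after the stop codon where the model gives one. It was found in a transcript model of 46 genes. The same pattern was present somewhere in 5.72% of the 58725 other protein-coding transcripts. In the 45 genes with a known distance, it began between 21 and 58 bases after the stop codon, with a median of 31. The forms are shown because H4 differed from the other families in them. Capitals mark the 2 arms of the stem, and the name says which families held the form.
H1, H2A, H2B and H3, most common form: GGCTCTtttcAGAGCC
H1, H2B and H3, second form: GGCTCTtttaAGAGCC
H4, most common form: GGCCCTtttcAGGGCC
H4, the form of *Hist1h4i* and *Hist2h4*: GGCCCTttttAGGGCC
H4, the form of *Hist1h4b* and *Hist1h4j*: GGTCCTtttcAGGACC
All 34 stem-loops outside the H4 family had the first arm of the first 2 lines, and none of the 12 in the H4 family did. The most common form was held by 26 genes and the second by 6. The H4 forms were held by 7, 2 and 2 genes in the order of the lines. Single genes held 3 other forms.

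RefSeq promoters (GRCm38.p6) were matched for 61 genes, and the motifs in them also differed between H4 and the other families. Motifs, none of which contains another, were searched on both strands from 250 bases before to 50 bases after the RefSeq start. CCAAT, the letters bound by NF-Y, was in all 49 matched promoters outside H4 and in 3 of 12 H4 promoters, beside 37.4% of all 32851 RefSeq promoters. GGTCCG, a piece of the H4 subtype element that was chosen after the promoters had been looked at, was in 11 of 12 H4 promoters. Outside H4 it was in the promoters of *Hist1h2bh* (H2B) and *Hist1h3i* (H3), and it was in 8.25% of all promoters. TATAAA was in 34 of 61 promoters, beside 13.6% of all. The octamer ATTTGCAT, bound by OCT1, was in 7 H2A and 6 H2B promoters and in 1.74% of all. The 150 bases before the RefSeq start are shown for both H4 genes that rose and for an H1, an H2A and an H2B gene that fell. Capitals mark the motifs named above on either strand, and the sequences run 5′ to 3′ on the strand of the gene.
*Hist1h4i*, chr13:22041363-22041512, minus strand: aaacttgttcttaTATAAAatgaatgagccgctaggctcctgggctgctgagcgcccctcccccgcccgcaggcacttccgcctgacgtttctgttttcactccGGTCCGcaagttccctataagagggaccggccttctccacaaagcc
*Hist1h4c*, chr13:23698459-23698608, minus strand: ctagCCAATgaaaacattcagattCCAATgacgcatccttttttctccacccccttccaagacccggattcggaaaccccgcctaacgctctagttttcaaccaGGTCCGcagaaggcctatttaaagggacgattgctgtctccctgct
*Hist1h1a*, chr13:23763518-23763667, plus strand: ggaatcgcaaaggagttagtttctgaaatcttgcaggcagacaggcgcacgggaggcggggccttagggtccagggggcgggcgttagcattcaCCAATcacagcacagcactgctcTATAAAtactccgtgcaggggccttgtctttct
*Hist1h2ad*, chr13:23574231-23574380, plus strand: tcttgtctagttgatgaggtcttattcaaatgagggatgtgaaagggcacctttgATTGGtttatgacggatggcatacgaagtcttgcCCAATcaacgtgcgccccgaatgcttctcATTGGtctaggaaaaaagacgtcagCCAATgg
*Hist1h2bh*, chr13:23543445-23543594, minus strand: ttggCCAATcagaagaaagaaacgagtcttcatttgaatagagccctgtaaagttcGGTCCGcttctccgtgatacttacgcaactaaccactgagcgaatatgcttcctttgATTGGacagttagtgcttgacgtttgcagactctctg
Both H4 windows and the H2B window held GGTCCG, and the H1 and H2A windows did not. Among the windows shown, the motif was present in genes that rose and in *Hist1h2bh*, which fell (log2 fold change -1.25, adjusted p = 0.00506 by edgeR). Any relation of the motif to the fold changes was not tested. A match says only that the letters are there, and no binding was measured.

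Total counts ran from 15675358 to 16817994 per library. A count of 0 allows up to 3 counts, which equal 0.175 to 0.204 CPM and cover counting error only. CPM here means counts scaled by TMM to a common library size. *Phf6* itself, counted over its whole length, had 1044, 827 and 1142 counts in *WT Phf6,RE9a* libraries and 388, 314 and 331 in *VC Phf6,RE9a* libraries, a log2 fold change of -1.66 (SE 0.13, adjusted p = 9.32e-05 by edgeR). The sum of the histone genes was 702, 859 and 787 CPM in *WT Phf6,RE9a* libraries and 649, 624 and 493 CPM in *VC Phf6,RE9a* libraries, so the groups did not overlap on the TMM scale. As a share of all counts, with no TMM scaling, it was 0.0643%, 0.0808% and 0.0779% against 0.0673%, 0.0666% and 0.0517%, and the groups overlapped. In bulk cells, fewer cells in S phase and less histone mRNA per cell cannot be told apart.

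Of the 67 genes, 7 had no count in any library and 11 had counts too low to be tested, which left 49 genes with a test. Among these, 11 fell and 2 rose in *VC Phf6,RE9a* cells at an adjusted p under 0.05 (edgeR quasi-likelihood test, Benjamini-Hochberg over 14169 genes), and 36 were not called. Over all genes tested, 22.7% fell and 21.5% rose. The median log2 fold change was -0.37 over the tested histone genes and 0.01 over all tested genes, and 35 of the 49 had a negative value. Without *WT Phf6,RE9a* replicate 3 the median was -0.22. With an unadjusted p under 0.05, 15 were lower and 4 were higher, and the share over all genes at that threshold is not given here. The libraries of both groups did not overlap in 21 of the 49 genes, beside 57.3% of all genes. Scaling by total counts alone, which moved the median of all genes to 0.16, gave 4 higher and 8 lower histone genes. The shares over all genes under that scaling are not given here either. The calls were sensitive to single libraries. The number of genes that fell was 8 without *WT Phf6,RE9a* replicate 1 or 2, and 6 when *WT Phf6,RE9a* replicate 3 or *VC Phf6,RE9a* replicate 11 was left out. It was 4 and 5 when *VC Phf6,RE9a* replicates 12 and 13 were left out in turn. The shares over all genes in these smaller fits are not given here, so whether the drop is particular to histone genes was not tested. Of the 13 called genes, 5 kept their call when each library was left out in turn, namely *Hist1h4i*, *Hist1h1a*, *Hist1h2ad*, *Hist1h2bc* and *Hist1h2bh*.

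**Figure D1:**
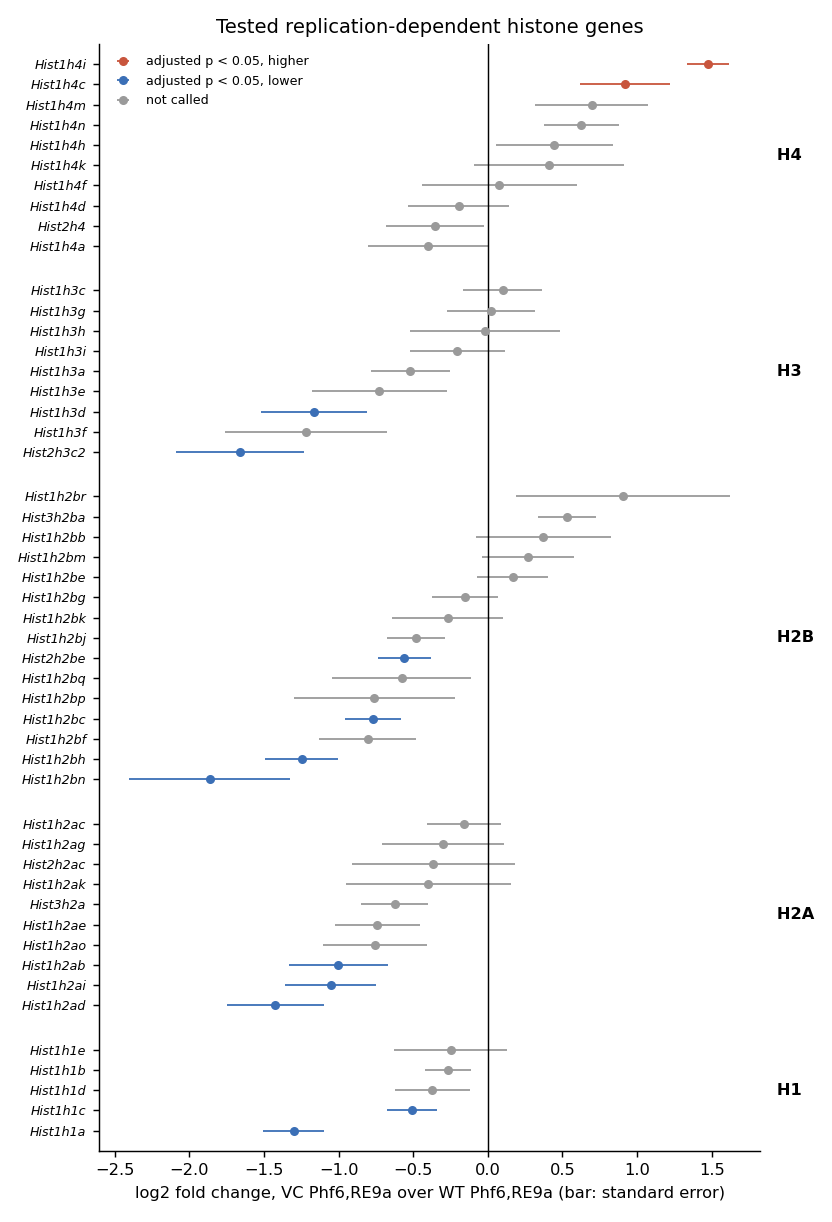
Log2 fold change (VC Phf6,RE9a over WT Phf6,RE9a, x axis) of the 49 tested genes by family, with bars of 1 standard error. The 5 tested H1 and 10 tested H2A genes lie left of 0, and both genes called higher belong to H4.

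In H1, H2A, H2B and H3 the called genes fell in *VC Phf6,RE9a* cells, and in H4 they rose. No H1, H2A, H2B or H3 gene rose at the threshold by edgeR or DESeq2 (1 H2B gene did by limma and at an unadjusted p under 0.05). No H4 gene fell by edgeR, DESeq2 or limma, also at an unadjusted p under 0.05. The counts of fallen genes were 2 of 5 tested in H1, 3 of 10 in H2A, 4 of 15 in H2B and 2 of 9 in H3, while 2 of 10 tested H4 genes rose. Over all tested genes 22.7% fell and 21.5% rose, and the counts in H2A, H2B, H3 and H4 were near these shares. The median log2 fold change was -0.37 in H1, -0.68 in H2A, -0.48 in H2B, -0.52 in H3 and 0.43 in H4. Each of these medians kept its sign under every scaling, filter, tool and left-out library tried. The difference between H4 and the other families was not itself tested.

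The counts of each family were also summed and tested in one fit with all other genes, in which 44.2% of the features were called in either direction. H4 summed to 34.0, 38.2 and 37.8 CPM in *WT Phf6,RE9a* and 76.7, 70.8 and 71.5 CPM in *VC Phf6,RE9a* libraries, a log2 fold change of 0.99 (SE 0.09, adjusted p = 0.000163). H2A summed to 38.7, 44.2 and 59.5 CPM against 31.3, 29.3 and 28.0 CPM, a log2 fold change of -0.68 (SE 0.16, adjusted p = 0.0112). H2B summed to 152, 218 and 185 CPM against 130, 134 and 116 CPM, a log2 fold change of -0.55 (SE 0.14, adjusted p = 0.0139). In every family, H1 and H3 included, the groups did not overlap in CPM, and neither did they in 57.3% of all tested genes. H4 had the smallest standard error. H3 summed to 24.5, 38.2 and 39.2 CPM against 23.8, 23.2 and 20.3 CPM, a log2 fold change of -0.60 (SE 0.19, adjusted p = 0.0348). H1 summed to 452, 521 and 465 CPM against 387, 366 and 257 CPM, a log2 fold change of -0.51 (SE 0.16, adjusted p = 0.0324). The lowest *WT Phf6,RE9a* value of H3 lay just above the highest *VC Phf6,RE9a* value, and H1 was lowest in *VC Phf6,RE9a* replicate 13. The H1 call was lost without any 1 library except *VC Phf6,RE9a* replicate 11, the H3 call without any 1 library except *WT Phf6,RE9a* replicate 1 and the H2B call without *VC Phf6,RE9a* replicate 13. With total counts in place of TMM the H1, H2B and H3 calls were lost (adjusted p = 0.096, 0.0536 and 0.102), and as a share of all counts the H2B and H3 sums overlapped between the groups.

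Single genes carried much of these sums. Without the most counted gene of each family, a comparison added after the values had been seen, H1 fell by 0.50 on the log2 scale (adjusted p = 0.00541) and H2A fell by 0.71 (adjusted p = 0.0202). H2B then had a log2 fold change of -0.29 (adjusted p = 0.0615), H3 -0.34 (adjusted p = 0.172) and H4 0.26 (adjusted p = 0.308). The genes left out were *Hist1h1c*, *Hist3h2a*, *Hist1h2bc*, *Hist1h3d* and *Hist1h4i*. *Hist1h1c* held 89.7% to 92.7% of the H1 counts, and *Hist1h4i* held 40.6% to 74.7% of the H4 counts. The share of all histone counts that fell to H4 was 4.44% to 4.85% in *WT Phf6,RE9a* and 11.3% to 14.5% in *VC Phf6,RE9a* libraries.

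**Figure D2:**
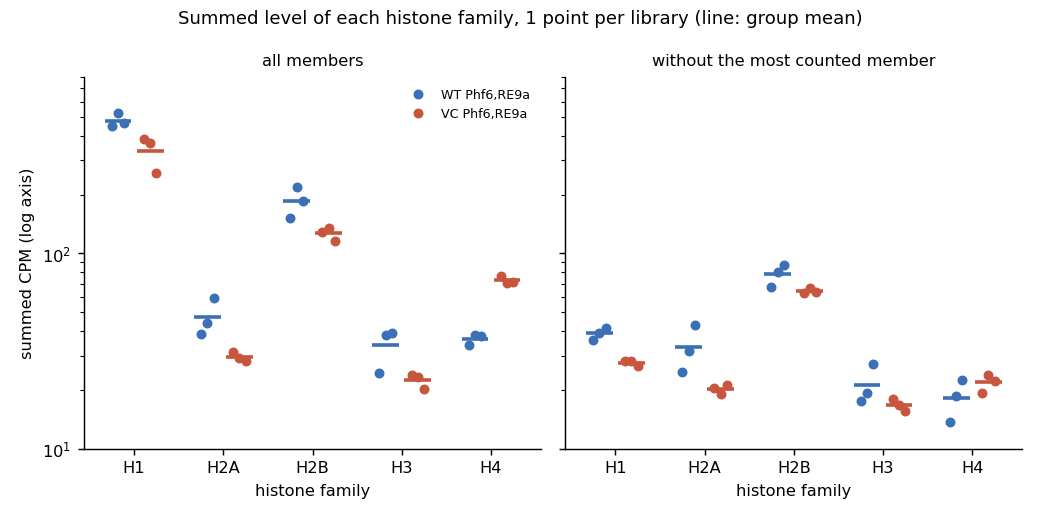
Summed CPM (log axis) of each histone family in every library, with all members (left) and without the most counted member (right). H4 lies higher in all 3 VC Phf6,RE9a libraries on the left (70.8 to 76.7 against 34.0 to 38.2 CPM) and overlaps between the groups on the right.

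*Hist1h4i* (chr13:22040636-22041362, minus strand, 1 of 13 genes for the nucleosome core histone H4) was the histone gene with the smallest p. It had 312, 289 and 254 counts in *WT Phf6,RE9a* and 971, 804 and 828 in *VC Phf6,RE9a* libraries. This was 18.4 ± 2.65 CPM (SD, n = 3) against 51.1 ± 5.50 CPM (SD, n = 3), and the log2 fold change was 1.47 (SE 0.14, adjusted p = 0.000212 by edgeR). All *VC Phf6,RE9a* libraries lay well above all *WT Phf6,RE9a* libraries, and the call held in every setting tried. Per length, its level went from 25.2 to 69.4 FPKM. Its neighbours in the same block of 5 genes had smaller values of the other sign, with log2 fold changes of -0.30 for *Hist1h2ag*, -0.48 for *Hist1h2bj* and -0.27 for *Hist1h2bk*, none of them called. The other neighbour, *Hist1h2ah*, was too low to be tested.

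*Hist1h4c* (chr13:23697635-23698454, minus strand), another H4 gene, had 23, 15 and 20 counts against 48, 39 and 33, a log2 fold change of 0.92 (SE 0.30, adjusted p = 0.0405). The groups did not overlap, but the counts were low, and the call was lost without any 1 library (adjusted p up to 0.143) and with DESeq2 (adjusted p = 0.0908). *Hist1h4n* had 36, 36 and 53 counts against 67, 80 and 63, a log2 fold change of 0.63 (adjusted p = 0.0794). It shares its coding sequence with *Hist1h4m*, and only 19.3% of its 100-base windows were found in no other gene. *Hist1h4k* had 17, 15 and 39 counts against 18, 54 and 30, so its groups overlapped (log2 fold change 0.41, adjusted p = 0.541). *Hist1h4a*, *Hist2h4* and *Hist1h4d* had negative values between -0.40 and -0.20 and were not called. *Hist4h4*, the H4 gene on chromosome 6, had 7, 5 and 7 counts against 10, 17 and 13 and was too low to be tested.

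H1 linker histones bind the DNA between nucleosomes. *Hist1h1a* (chr13:23763666-23764406, plus strand), a linker histone subtype, had 143, 139 and 178 counts in *WT Phf6,RE9a* and 64, 61 and 78 in *VC Phf6,RE9a* libraries. The groups were far apart (9.83 ± 0.82 against 3.99 ± 0.57 CPM, SD, n = 3), with a log2 fold change of -1.30 (SE 0.20, adjusted p = 0.00193). All of its 100-base windows were found in no other gene. *Hist1h1c* (chr13:23738808-23740367, plus strand), the most abundant histone gene here and 1 of those known to make a polyadenylated mRNA, had 6409, 7099 and 7002 counts against 6075, 5806 and 3884. Its log2 fold change was -0.51 (SE 0.17, adjusted p = 0.0394). The lowest value came from *VC Phf6,RE9a* replicate 13, and without that library the log2 fold change was -0.34 (adjusted p = 0.0674). The *Hist1h1c* call was lost in 5 of 6 fits without 1 library (adjusted p up to 0.0855 by edgeR). *Hist1h1b* had 222, 183 and 228 counts against 188, 209 and 176, and was not called (log2 fold change -0.27, adjusted p = 0.193 by edgeR). *Hist1h1d* and *Hist1h1e* were negative and not called, and *Hist1h1e* overlaps *Hist1h2be*, so the counts of both are uncertain. *Hist1h1t*, the testis linker histone, had at most 3 counts in a library.

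H2A and H2B pair as dimers at the outside of the nucleosome. *Hist1h2ad* (chr13:23574381-23574952, plus strand), an H2A gene, had 50, 93 and 109 counts against 36, 33 and 33, a log2 fold change of -1.42 (SE 0.32, adjusted p = 0.00964). *Hist1h2ai* (chr13:21716422-21716814, plus strand) had 26, 29 and 27 counts against 17, 14 and 12, a log2 fold change of -1.05 (adjusted p = 0.0242). *Hist1h2ab* (chr13:23751126-23751598, plus strand) had 20, 19 and 22 counts against 13, 8 and 12, a log2 fold change of -1.002 (adjusted p = 0.0413). None of the 3 genes overlapped between the groups, and neither did 57.3% of all tested genes. The *Hist1h2ai* call was lost in 5 of 6 fits without 1 library (adjusted p up to 0.0872 by edgeR). The *Hist1h2ab* call was lost in all 6 (adjusted p up to 0.149). In the order given, the 3 genes had 36.4%, 11.6% and 47.6% of windows found in no other gene, so reads could have been split or lost among copies. Every H2A gene also overlaps another row, and the rows that overlap these 3 genes had no count. *Hist1h2ao*, which shares its coding sequence with *Hist1h2ap*, had 41, 61 and 70 counts against 23, 43 and 45 (log2 fold change -0.75, adjusted p = 0.116). *Hist1h2af* stood apart in 1 library, with 3, 2 and 148 counts in *WT Phf6,RE9a* and 1, 0 and 0 in *VC Phf6,RE9a* libraries, and was not tested.

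*Hist1h2bc* (chr13:23684199-23692908, plus strand), the most abundant H2B gene, had 1307, 2021 and 1622 counts against 1136, 1171 and 877, a log2 fold change of -0.77 (SE 0.19, adjusted p = 0.0128). *Hist1h2bh* (chr13:23541714-23543392, minus strand) had 116, 108 and 129 counts against 68, 52 and 42, a log2 fold change of -1.25 (SE 0.24, adjusted p = 0.00506). *Hist2h2be* (chr3:96221119-96223738, plus strand) had 301, 355 and 356 counts against 195, 273 and 283, a log2 fold change of -0.56 (SE 0.18, adjusted p = 0.0352). In each of these H2B genes every *VC Phf6,RE9a* library was below every *WT Phf6,RE9a* library in CPM. The *Hist2h2be* call was lost in 4 of 6 fits without 1 library (adjusted p up to 0.105 by edgeR). *Hist1h2bn* (chr13:21754123-21754503, plus strand) had 20, 30 and 80 counts against 9, 16 and 13, a log2 fold change of -1.86 (SE 0.54, adjusted p = 0.0252). Without *WT Phf6,RE9a* replicate 3, its highest library, the value was -1.16 (adjusted p = 0.067). The *Hist1h2bn* call was lost in 4 of 6 fits without 1 library (adjusted p up to 0.0875 by edgeR). *Hist1h2bg* and *Hist1h2bj*, which followed *Hist1h2bc* in mean FPKM over all 6 libraries, had log2 fold changes of -0.15 and -0.48 and were not called. *Hist1h2ba* and *Hist1h2aa*, the testis H2B and H2A genes, had no count in any library.

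H3 forms the centre of the nucleosome with H4. *Hist1h3d* (chr13:23575763-23577011, plus strand) had 107, 279 and 199 counts against 98, 109 and 80, a log2 fold change of -1.16 (SE 0.35, adjusted p = 0.0300). Without *WT Phf6,RE9a* replicate 2, its highest library, the value was -0.76 (adjusted p = 0.0725). The *Hist1h3d* call was lost in 5 of 6 fits without 1 library (adjusted p up to 0.0884 by edgeR). *Hist2h3c2* (chr3:96238108-96239127, minus strand) had 18, 42 and 42 counts against 15, 11 and 9, a log2 fold change of -1.66 (SE 0.43, adjusted p = 0.0163). Its coding sequence is identical to that of *Hist2h3c1*, which had no count, and 38.4% of its windows were found in no other gene. The *Hist2h3c2* call was lost in 2 of 6 fits without 1 library (adjusted p up to 0.0601 by edgeR). *Hist1h3c*, the H3 gene with the highest mean FPKM over all 6 libraries but below *Hist1h3d* in *WT Phf6,RE9a* cells, had 61, 68 and 117 counts against 96, 94 and 95 (log2 fold change 0.10, adjusted p = 0.790). *Hist1h3a* had 62, 51 and 80 counts against 58, 42 and 46 (log2 fold change -0.52, adjusted p = 0.147). *Hist1h3f* had 20, 9 and 23 counts against 12, 9 and 3 (log2 fold change -1.22, adjusted p = 0.105).

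**Figure D3:**
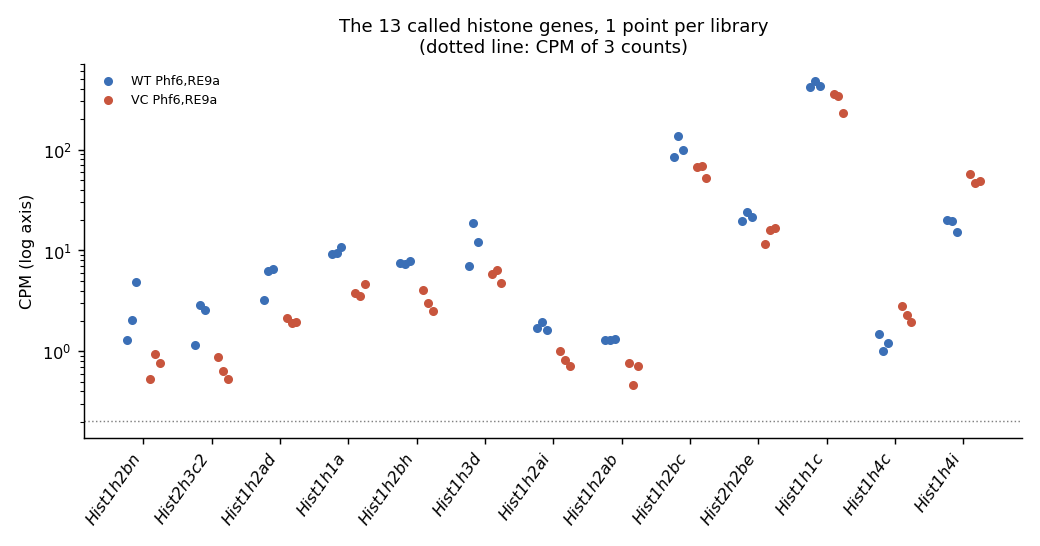
CPM (log axis) of the 13 called histone genes in each WT Phf6,RE9a (blue) and VC Phf6,RE9a (red) library, ordered by log2 fold change. The 11 genes on the left fell and Hist1h4c and Hist1h4i on the right rose, and the 4 genes with the most negative values had group means under 10 CPM.

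Levels of different genes were compared per length, in FPKM. *Hist1h1c* had 281 ± 22.3 FPKM in *WT Phf6,RE9a* and 196 ± 44.2 FPKM in *VC Phf6,RE9a* cells (SD, n = 3), and it led in both. In *WT Phf6,RE9a* cells *Hist1h2bc* followed with 91.7 ± 23.1 FPKM and *Hist1h4i* came after it with 25.2 FPKM. In *VC Phf6,RE9a* cells *Hist1h4i* had 69.4 FPKM and *Hist1h2bc* 53.4 ± 7.93 FPKM, so they had changed places. *Hist1h2bj*, *Hist1h2bg* and *Hist1h1b* lay close together, between 18.1 and 21.4 FPKM in *WT Phf6,RE9a* and between 14.9 and 17.99 FPKM in *VC Phf6,RE9a* cells. *Hist3h2ba* had 13.6 FPKM in *WT Phf6,RE9a* and 19.4 FPKM in *VC Phf6,RE9a* cells, below them in the first group and above them in the second, where its lead over *Hist1h2bg* was smaller than its SD (3.42 FPKM, n = 3).

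The 8 histone genes on the list of those known to make polyadenylated mRNA were *Hist1h1c*, *Hist1h2bc*, *Hist2h2be*, *Hist2h2aa1*, *Hist2h2aa2*, *Hist3h2a*, *Hist3h2ba* and *Hist4h4*. Of the 5 tested, 3 fell by edgeR and limma, and 4 by DESeq2 and at an unadjusted p under 0.05. None rose by edgeR or DESeq2 (1 by limma and at an unadjusted p under 0.05), and the median was -0.56. The 44 other tested genes had 8 that fell and 2 that rose, with a median of -0.33. For comparison, 22.7% of all tested genes fell and 21.5% rose. Summed, the 8 genes had 544 to 663 CPM in *WT Phf6,RE9a* and 318 to 463 CPM in *VC Phf6,RE9a* libraries. The *Hist3* genes are neighbours on chromosome 11 and had values on either side of 0. *Hist3h2a* (chr11:58954685-58956830, plus strand) had 214, 185 and 275 counts against 186, 175 and 114 (log2 fold change -0.62, SE 0.22, adjusted p = 0.0547). *Hist3h2ba* (chr11:58948920-58949533, plus strand) had 138, 110 and 144 counts against 244, 199 and 173 (log2 fold change 0.53, SE 0.19, adjusted p = 0.0576). Neither gene overlapped between the groups, and each passed the threshold under some of the alternatives.

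Transcript models of the histone genes also differed in their ends. In 23 genes the model ended within 100 bases after the stem-loop, in 23 it ran on for 108 to 4884 bases, and in 21 it held no stem-loop. The genes whose models ran past the stem-loop took 73.65% of all histone counts, those that ended near it 6.51% and those without it 19.84%. Single genes made up much of these shares. *Hist1h1c* held 36275 of the 48955 counts of genes with a longer model. *Hist1h2bc* held 8134 of the 13191 counts of genes without a stem-loop. Of 19 tested genes with a longer model 4 fell and 2 rose by edgeR. Of 18 that ended near the stem-loop 2 fell and none rose, and of 12 without a stem-loop 5 fell and none rose. Beside them, 22.7% of all tested genes fell and 21.5% rose, and the 3 kinds were not tested against each other. At an unadjusted p under 0.05, and by limma, 1 gene of the second kind and none of the third was higher, and DESeq2 called no gene of either kind higher. The medians were -0.37, -0.29 and -0.48. RNA classes that carry no poly(A) tail were lower or similar in *VC Phf6,RE9a* cells, with 37.8 to 46.5 against 29.2 to 34.7 CPM for snRNA and 150 to 177 against 158 to 166 CPM for snoRNA. Rows of type rRNA summed to 435 to 655 CPM in *WT Phf6,RE9a* and 228 to 289 CPM in *VC Phf6,RE9a* libraries. Of 11 listed RNA genes without a poly(A) tail, *Rn7sk* alone was tested, with 34, 16 and 125 counts against 13, 9 and 7 (log2 fold change -2.66, adjusted p = 0.0211). The part of these differences in the histone values was not tested.

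Several histone genes have near-identical copies. The share of a gene's 100-base windows found in no other gene ran from 0% to 100%, with a median of 62.9%. The 7 genes with no count had a median of 0%, and 5 of them (*Hist2h2aa1*, *Hist2h2aa2*, *Hist2h2bb*, *Hist2h3b* and *Hist2h3c1*) had no window of their own. Other genes here include rows that overlap the gene at its own place, on either strand. All 5 overlap such a row, and *Hist2h2bb* and *Hist2h3b* share their coding sequence with no other histone gene of the 67. Their windows may therefore be shared with an overlapping row and not with a copy. The other genes with no count, *Hist1h2aa* and *Hist1h2ba*, had 89.7% and 72.6% of such windows. The tested genes had a median of 68.2%, from 5.2% to 100%, and 15 of the 49 lay under 50%. *Hist1h2bq*, at 5.2%, had 111 counts over the 6 libraries. A count of 0 for a gene with no window of its own says nothing about its expression.

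**Figure D4:**
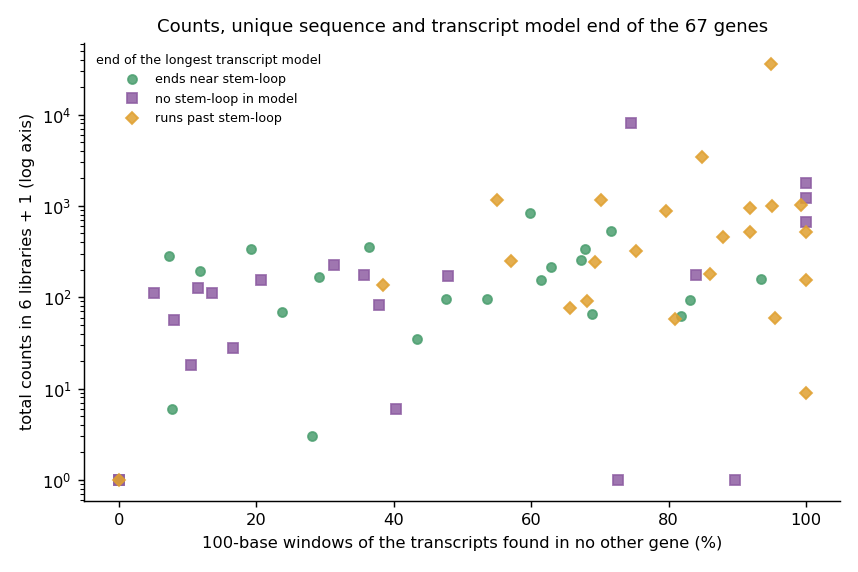
Total counts in the 6 libraries plus 1 (log axis) against the share of 100-base windows found in no other gene, for all 67 genes, by the end of the transcript model. For genes with several models, the end is that of the model with the fewest bases after a stem-loop, which the legend calls the longest. The 5 genes with no window of their own sit at 0 counts in one place at the lower left, and the most counted gene, Hist1h1c, had a model that runs past the stem-loop.

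Many H2A and H2B genes stand head to head and share the sequence between their starts. There were 13 such pairs with starts 176 to 660 bases apart, 12 of them of an H2A with an H2B gene. In 8 pairs both genes were tested, and in all 8 both log2 fold changes were negative. In 5 of the 8 pairs 1 of the genes was called lower, and in no pair were both called. Taken singly, 22.7% of all tested genes fell, and whether calls gather in pairs was not tested. *Hist1h2bf* had -0.80 (adjusted p = 0.0791) beside *Hist1h2ad* with -1.42, and *Hist1h3f* had -1.22 beside *Hist1h2bh* with -1.25. *Hist1h2ac* had 105, 188 and 184 counts against 160, 158 and 149 (log2 fold change -0.16) beside *Hist1h2bc* with -0.77. *Hist2h2ac* and *Hist1h2ak* had -0.37 and -0.40 beside *Hist2h2be* and *Hist1h2bn*. The 3 pairs with no call were *Hist1h2bq* and *Hist1h2ao*, *Hist1h2ag* and *Hist1h2bj*, and *Hist1h2ae* and *Hist1h2bg*. Since 10 of 10 tested H2A and 10 of 15 tested H2B genes were negative, a shared sign within pairs is also a shared sign of both families.

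**Figure D5:**
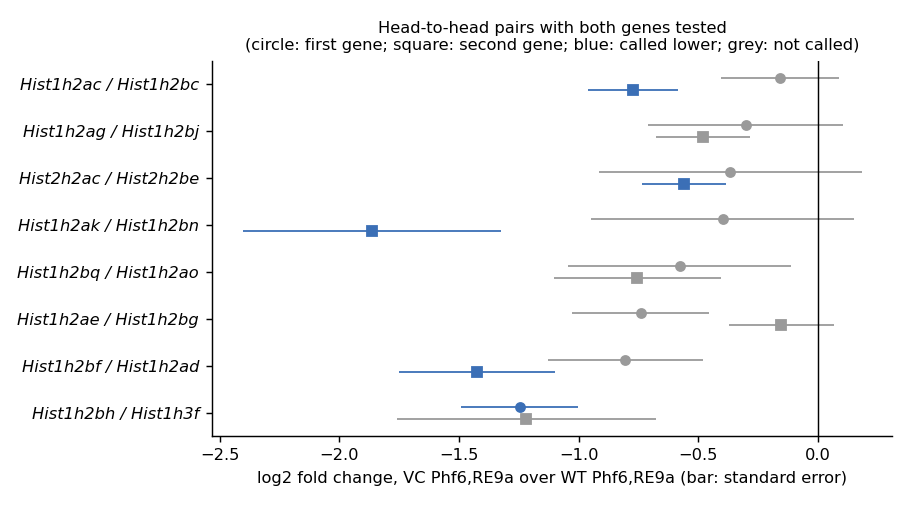
Log2 fold change (VC Phf6,RE9a over WT Phf6,RE9a, x axis) of both genes in the 8 head-to-head pairs with a test, with bars of 1 standard error. All 16 values lie left of 0, from -0.15 for Hist1h2bg to -1.86 for Hist1h2bn.

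The DNA replication and mitosis genes had more calls upward than downward. Of 35 tested DNA replication genes 16 rose and 1 fell, and their median was 0.41 on the log2 scale. Of 20 mitosis genes 13 rose and 1 fell, with a median of 0.57. The shares over all tested genes were 21.5% that rose and 22.7% that fell. Examples were *Rfc4*, a clamp loader subunit (0.95, adjusted p = 0.000951), *Cdc6*, which licenses origins (0.86, adjusted p = 0.0161), and *Aurka*, a mitotic kinase (1.03, adjusted p = 0.00486). *Rfc2* fell by 1.05 on the log2 scale (adjusted p = 0.000322). Summed, the replication genes had 4234, 3436 and 4921 CPM in *WT Phf6,RE9a* and 4960, 4980 and 4770 CPM in *VC Phf6,RE9a* libraries, which overlapped. The mitosis genes summed to 2606, 2119 and 3365 CPM against 3905, 4003 and 3775 CPM, which did not overlap. The replication count was 27 without *WT Phf6,RE9a* replicate 3, but 3 and 9 without replicates 1 and 2 and 4, 3 and 8 without *VC Phf6,RE9a* replicates 11, 12 and 13. The mitosis count ran from 5 to 19 without 1 library. For these fits the shares over all genes are not given here.

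Of 21 tested genes for the transcription and processing of histone mRNA, 4 rose and none fell by edgeR, DESeq2 or limma (2 fell at an unadjusted p under 0.05), with a median of 0.08. The count of those that rose was near the 21.5% over all tested genes. They were *Upf1*, a helicase of histone mRNA decay (0.55, adjusted p = 0.00099), *Ncbp2*, a cap-binding subunit (0.57, adjusted p = 0.0197), and the cyclin E genes *Ccne1* (0.86, adjusted p = 0.0148) and *Ccne2* (0.62, adjusted p = 0.0335). The number that rose was 2 without *WT Phf6,RE9a* replicate 1, 2 without *VC Phf6,RE9a* replicate 11 and 1 without replicate 12. Of 19 histone chaperone genes 3 rose and 5 fell, near the 21.5% and 22.7% over all tested genes. Among the called chaperones were *Tonsl* (0.97, adjusted p = 0.002) and *Ipo4*, a histone import factor (-1.02, adjusted p = 0.00107). Without *WT Phf6,RE9a* replicate 3 the chaperones that rose were 8, and with total counts 5 rose and 2 fell. Shares over all genes in these alternative fits are not given here.

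The list of replication-independent histone genes, which holds mostly histone variants with polyadenylated mRNAs, had 2 that rose and 1 that fell of 9 tested, with a median of 0.17. Among all tested genes 21.5% rose and 22.7% fell, so the count that rose was near the general share. *Cenpa*, the centromere H3 variant, whose mRNA peaks in G2 phase, had 1586, 1427 and 2085 counts against 3017, 3085 and 3250, a log2 fold change of 0.76 (SE 0.11, adjusted p = 0.00148). *H2afv*, an H2A.Z gene, had a log2 fold change of 0.51 (adjusted p = 0.0109). *H2afy*, the macroH2A gene, fell by 0.52 on the log2 scale (adjusted p = 0.00141). As a sum these genes had 2521 to 3315 CPM in *WT Phf6,RE9a* and 2928 to 3483 CPM in *VC Phf6,RE9a* libraries. This was more than the 493 to 859 CPM of all 67 replication-dependent genes. Whether poly(A) RNA was selected is not given, and its part in this difference was not tested.

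Markers of blood cell types moved between the groups as well. All 7 erythroid markers were higher in *VC Phf6,RE9a* cells, with a sum of 1397 to 2137 against 4570 to 5256 CPM. Of 8 myeloid markers 4 were higher and 2 lower, and their sum fell from 2169 to 2964 to 522 to 757 CPM, mainly through *Kit*, a progenitor receptor, at 41368, 39756 and 31001 against 3679, 6040 and 4218 counts. The 4 tested of 6 B cell markers were higher, with sums of 0.61 to 1.10 against 9.03 to 26.9 CPM, and *Ms4a1* had at most 1 count in a *WT Phf6,RE9a* library. Of 6 T cell markers only *Lck* was tested and was higher (sums of 1.10 to 1.57 against 6.30 to 8.80 CPM), and *Cd3g* had at most 4 counts in a library. Of 3 tested megakaryocyte markers 1 was higher and *Itga2b* was lower (sums of 167 to 293 against 16.7 to 17.3 CPM), and 1 of 5 macrophage markers was higher (20.97 to 23.3 against 31.4 to 36.3 CPM). The part of these cells in the histone values was not tested.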

How the data were processed

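Total RNA of sorted leukemia cells was sequenced (3 libraries per group). Per the labels, 1 µg of RNA went into the Illumina TruSeq kit. The authors deposited a table of raw read counts per Ensembl gene and of FPKM values per gene length and scaled library size. The authors' own comparison columns (mean normalized signal, log2 fold changes and p-values) were not used. The submitters' processing notes name Bowtie 0.12.0 and the build mm8, while the deposited coordinates match GRCm38. The counting tool, annotation release and strandedness are not given in the sources used here.

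Counts were analysed in R 4.3.3 with edgeR 4.0.16 (filterByExpr, TMM, quasi-likelihood test, Benjamini-Hochberg adjustment over 14169 genes, threshold 0.05). SE is the absolute log2 fold change over the square root of F. CPM used TMM-scaled library sizes with no prior count. Each library was one replicate. Within groups, pairs of libraries differed beyond sampling noise, with chi-square values per gene of 10.7 to 41.3. Group correlations were 0.975 to 0.988 within and 0.872 to 0.909 across groups. Depth of 15675358 to 16817994 counts limits genes near 3 counts.

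Genes named are, per family, the 3 with the highest mean FPKM and the 3 with the smallest p among tested members, with every tested *Hist3* gene, gene on the polyadenylated list, gene called against the majority and tested head-to-head pair. Others (neighbours, untested members and genes at 0) were named after their values were seen. Members and lists were chosen with earlier results of these data known. Alternatives were DESeq2 1.42.0, RLE, upper quartile and total-count scaling, other filters, limma 3.58.1 on log2(FPKM + 1), stricter thresholds, leaving out each library and leaving out members that overlap another row. Stem-loops, 100-base windows and motifs were found with Python 3.11.15 in GENCODE M21 and RefSeq sequences.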

Additional observations from a re-analysis of the deposited data

How the results depend on the processing

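The log2 fold changes of *Phf6* and of the summed H1, H2A, H2B, H3 and H4 levels kept their sign under every alternative, and the median over tested histone genes stayed between -0.45 and -0.21. The number of histone genes higher was 2 with TMM and edgeR. It was 1 with DESeq2, 4 with total counts, 1 with no count filter, 4 with limma on log2(FPKM + 1), 1 at an adjusted p under 0.01, 1 with a fold of at least 2 as well, and 1 without each library in turn. The number lower was 11, and 3 at an adjusted p under 0.01, with 4 to 8 without 1 library. Shares over all genes under these alternatives are not given here. Among the 43 genes that overlap no other row, 37 were tested, of which 2 rose and 8 fell, with a median of -0.27. Leaving out the overlapping genes takes out the whole H2A family. With total counts the summed levels of H1 (-0.36, adjusted p = 0.096), H2B (-0.40, adjusted p = 0.0536) and H3 (-0.45, adjusted p = 0.102) no longer passed, and with limma H3 did not (-0.40, adjusted p = 0.0765). Without their most counted member, H2B (-0.29), H3 (-0.34) and H4 (0.26) did not pass. The cause of these losses was not tested, except that total counts moved the median of all genes from 0.01 to 0.16.

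Without 1 library, the summed log2 fold change ran from -0.62 to -0.35 in H1, -0.82 to -0.50 in H2A, -0.68 to -0.42 in H2B, -0.79 to -0.49 in H3 and 0.93 to 1.017 in H4, and that of *Phf6* from -1.76 to -1.59. The sign turned in 5 genes that were never called, at -0.0743 for *Hist1h4k*, -0.0715 for *Hist1h3c*, 0.000197 for *Hist2h2ac*, 0.0414 for *Hist1h2ak* and 0.0192 for *Hist1h2ac*, each without 1 library. At the other end these genes reached 0.90, 0.38, -0.86, -0.81 and -0.39 in that order. No paired analysis was possible because the groups share no replicate number.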
